A study of Mus musculus with 8 samples.

Results

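Protein kinase A (PKA) is the kinase through which cAMP acts in most cells, and 9 genes of this enzyme were followed by RNA sequencing in mouse calvarial osteoblasts treated with parathyroid hormone (PTH) or vehicle. They were the catalytic subunits Prkaca and Prkacb, the regulatory subunits Prkar1a, Prkar1b, Prkar2a and Prkar2b, and the PKA inhibitors Pkia, Pkib and Pkig. The genes were taken by symbol from this gene family, with no threshold on a measured value, and all 9 were found, each as 1 gene, among the 47706 genes of the count table. All 9 passed the filter on low counts and were among the 16736 genes tested.

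The 8 samples were primary osteoblasts from the skullcap of newborn mice, 4 treated with PTH and 4 with vehicle (PBS) for 24 hours from day 7 of differentiation. Every culture was deprived of serum before treatment, and no label or method gives a gene deletion for the sequenced cells, although the titles carry the unexplained prefix "Con". The study's methods describe osteogenic medium, whereas the labels name adipogenic differentiation. The labels do not say whether the 4 samples of a group came from separate cultures or preparations, so p-values measure the spread between these samples, which may be technical.

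Total counts ran from 33605610 to 56090654 in the PTH samples and from 41618108 to 46757836 in the vehicle samples, and PTH sample 1 was the deepest library. Tnfsf11, the osteoclast-forming cytokine RANKL and a known PTH target, was at 1.42 ± 0.365 CPM (counts scaled to the TMM-normalized library size; SD, n = 4) with vehicle and 128 ± 20.01 CPM (n = 4) with PTH, so the treatment labels matched this gene in all 8 samples. All 8 osteoblast markers were detected, with a summed level of 43479 to 50042 CPM in vehicle and 43625 to 60387 CPM in PTH samples. Most of this sum was Col1a1, with a mean of 44361.5 CPM with vehicle and 48173.4 CPM with PTH. Of the 8 markers, Runx2, Sp7, Pth1r and Dmp1 were called lower with PTH and the other 4 were not called. The 6 adipocyte markers summed to 36.6–49.2 CPM in vehicle and 31.3–47.5 CPM in PTH samples. The 6 macrophage markers summed to 186–325 CPM in vehicle and 278–325 CPM in PTH samples, the 4 chondrocyte markers to 302–313 CPM and 354–469 CPM, and the 5 neuron markers to 19.3–25.9 CPM and 31.2–43.0 CPM. The 5 endothelial markers, of which Emcn was at 0 in every sample, and the 5 skeletal muscle markers each summed to at most 7.45 CPM in every sample. Of single markers, the macrophage genes Cd14 and Tyrobp, the chondrocyte genes Acan and Col2a1 the neuron gene Tubb3, the endothelial gene Kdr and the muscle gene Myh3 were called higher with PTH, and Pparg (adipocyte), Tek (endothelial) and Acta1 (muscle) lower. Chondrocyte and neuron sums thus did not overlap between the groups, and the part of other cell types in the results below was not tested. The neuron sum rose mainly through Tubb3, with a mean of 9.73 CPM with vehicle and 27.4 CPM with PTH. Stmn2 went the other way, at 11.8 CPM with vehicle and 9.83 CPM with PTH, and was not called. Snap25 and Syt1 were low and not called. In bulk samples, fewer cells of a type and less RNA per cell cannot be told apart.

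As background, the PTH receptor raises cAMP through the stimulatory G protein. In the resting enzyme a dimer of regulatory subunits holds a pair of catalytic subunits inactive, and cAMP binding to the regulatory subunits sets the catalytic subunits free to phosphorylate targets such as CREB, which binds the cAMP response element TGACGTCA. Regulatory subunits of type I are largely cytosolic and those of type II are mostly held at membranes and organelles by A-kinase anchoring proteins. PKA inhibitors block the free catalytic subunit and carry it out of the nucleus. The inhibitor encoded by Pkig is known for ending nuclear PKA signalling after PTH in osteoblasts.

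Promoter sequence was examined because these genes encode the kinase that acts on CREB. RefSeq windows of GRCm38.p6, from 250 bases before to 50 bases after each annotated start, were given for 8 of the 9 genes, all but Pkia. The complete element TGACGTCA, which reads the same on both strands, was present in windows of Prkar1a and of no other of these 8 genes. In Prkar1a it lay in 2 of 6 windows, which overlap and hold the same site, at position −49 from one annotated start and at position 38 from the start upstream of it. Across all genes with a window, 549 of 27025 (2.03%) held the complete element. Among the 24 genes with 6 windows, Prkar1a included, 2 (8.33%) held it. The shorter form TGACG, or CGTCA on the other strand, lies within each complete element, and 6228 of 27025 genes (23.0%) held it. Prkaca, Prkacb, Prkar1a, Prkar1b, Prkar2a and Pkig held the shorter form, and Prkar2b and Pkib did not. These 8 genes have 24 windows in all, some of which overlap, and per window the shorter form was in 8 of 24 (33.3%), beside 6837 of 32851 windows (20.8%) overall. A match is a description of the letters and not evidence of binding, and no binding was measured here. The stretches of 30 bases around 1 match per gene are printed to show how the single complete element of this gene group differs from its shorter forms. They lie at chr11:109650889-109650918 (Prkar1a, plus strand), chr8:83972959-83972988 (Prkaca, plus), chr3:146813032-146813061 (Prkacb, minus), chr5:139150034-139150063 (Prkar1b, minus), chr9:108692126-108692155 (Prkar2a, plus) and chr2:163693813-163693842 (Pkig, plus), each written 5′ to 3′ on the strand of its gene with the match in capitals.
Prkar1a: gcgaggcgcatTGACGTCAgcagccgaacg
Prkaca: tgggctgcgggggCGTCAcggacagaggac
Prkacb: gggggcttgaccgCGTCActtccggcgcgc
Prkar1b: ttagagggcggagTGACGggcaggaggacg
Prkar2a: ccgcggccgcgtgCGTCAcaacccgggcgc
Pkig: tgtttgacaaatgTGACGggcctgggatgc

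The effect of 24 hours of PTH on the RNA of each gene was then determined. PTH raised the RNA of the regulatory subunit Prkar1a (1.48-fold) and of the inhibitor Pkig (1.49-fold). The RNA of the regulatory subunit Prkar1b fell by 18.1%, that of the catalytic subunit Prkacb fell by 15.1% and that of the inhibitor Pkia fell by 23.7%. In all, 2 of the 9 genes were higher and 3 were lower at a Benjamini-Hochberg adjusted p under 0.05 in edgeR's quasi-likelihood test, whereas the remaining 4 did not pass. Among all tested genes, 23.3% were called higher and 22.5% lower, so these counts lie near the background. The median log2 fold change was −0.11 over the 9 genes and −0.00081 over all tested genes. CPM values of PTH and vehicle samples did not overlap for 3 of the 9 genes (Prkar1a, Prkar1b and Pkig), beside 43.0% of all tested genes. Each of the 5 changes was smaller than the median change of the genes called: the median absolute log2 fold change of all genes called was 0.58, and of the called genes 49.0% changed less than Pkig, 48.5% less than Prkar1a, 26.7% less than Pkia, 12.0% less than Prkar1b and 5.49% less than Prkacb.

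**Figure D1:**
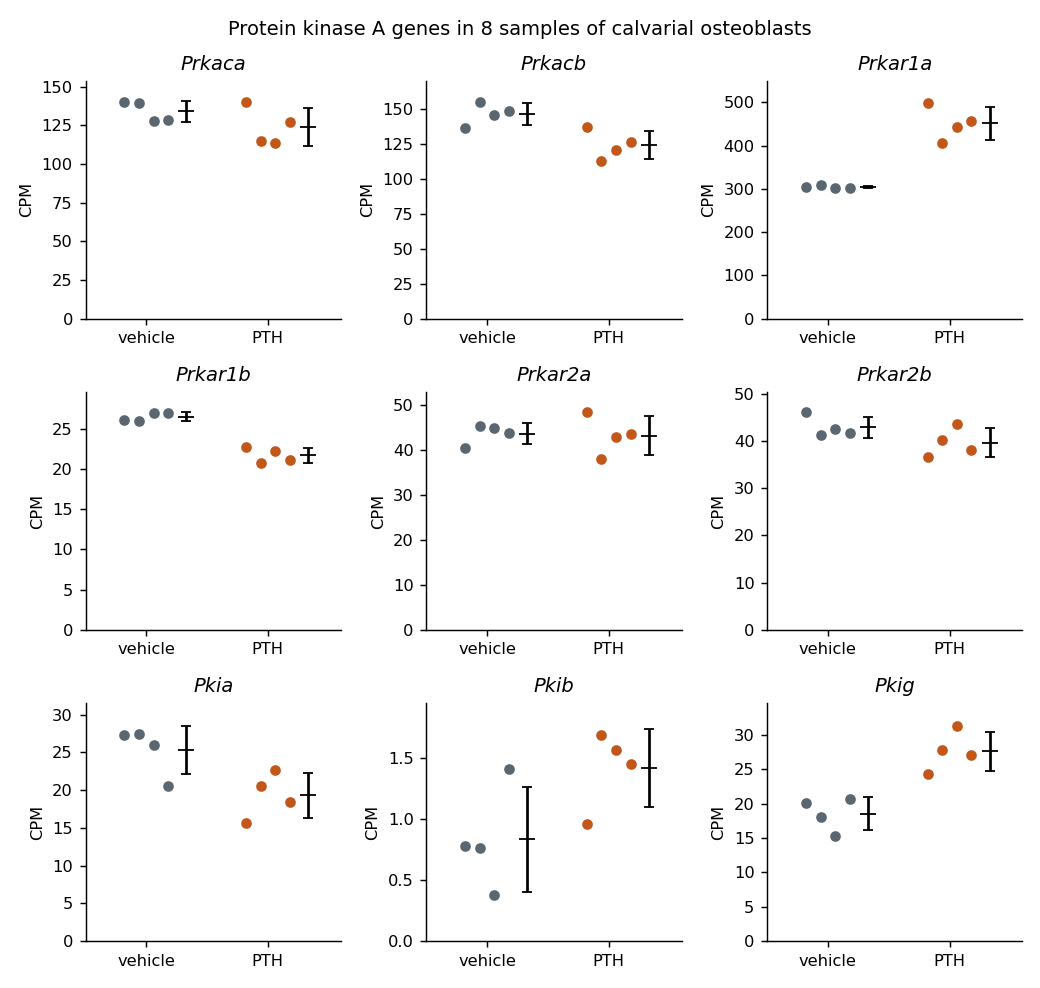
Level of each of the 9 genes in CPM (vertical axes, each from 0) in the 4 vehicle samples (grey) and 4 PTH samples (orange); each point is 1 sample in the order 1 to 4, and the bar is the mean with SD. Prkar1a and Pkig lay higher in every PTH sample than in any vehicle sample and Prkar1b lower, whereas the groups overlapped for the other 6 genes.

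The catalytic subunits carry the kinase activity, and Prkaca encodes the form found in nearly every tissue. Prkaca was at 140.1, 139.6, 128.0 and 128.7 CPM in vehicle samples 1 to 4 and at 140.0, 115, 114 and 127 CPM in PTH samples 1 to 4. PTH sample 1 lay at the top of the vehicle range and the other 3 below it. The log2 fold change of −0.11 (SE 0.0772, 95% interval −0.28 to 0.06) had an adjusted p of 0.257 in edgeR, so a change from −17.7% to 3.92% remained within its interval. Leaving out PTH sample 1 gave −0.18 with an adjusted p of 0.0482.

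Prkacb encodes the other major catalytic subunit, with splice forms abundant in brain. Its levels were 136, 156, 146 and 149 CPM with vehicle and 137, 113, 121 and 126 CPM with PTH. PTH sample 1 was again the highest of its group and lay just above vehicle sample 1, the lowest of the vehicle group. Prkacb had a log2 fold change of −0.24 (SE 0.0730, 95% interval −0.40 to −0.08, edgeR adjusted p = 0.0189). That call was near the threshold: it was lost on leaving out PTH sample 2 (−0.18, edgeR adjusted p = 0.0542), PTH sample 3 (−0.23, 0.0596), vehicle sample 2 (−0.22, 0.0726) or vehicle sample 4 (−0.23, 0.0534), and in a paired fit that blocked on sample number (−0.24, 0.0541). The exact two-sided permutation test gave p = 0.0571 for Prkacb, where the smallest p that 70 assignments allow is 0.0286.

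Among the regulatory subunits, Prkar1a encodes the type I subunit present in most tissues, whose inactivation in people causes Carney complex. With vehicle it was at 304, 309, 303 and 302 CPM, a coefficient of variation of 0.978%. With PTH it was at 499, 406, 444 and 457 CPM, a coefficient of variation of 8.48%. Every PTH sample lay well above the vehicle samples, which were nearly alike, and PTH sample 1 was the highest. The log2 fold change was 0.57 (SE 0.0722, 95% interval 0.41 to 0.73, edgeR adjusted p = 4.93e-05), a rise of 48.3% (95% interval 32.97% to 65.5%). On leaving out each sample in turn it stayed between 0.52 and 0.63 and passed the test each time.

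Prkar1b, the type I subunit found mainly in brain, moved the other way. It was at 26.1, 25.9, 26.9 and 27.0 CPM with vehicle and at 22.7, 20.7, 22.2 and 21.1 CPM with PTH. Both groups were tight and did not overlap. Its log2 fold change was −0.29 (SE 0.0677, 95% interval −0.44 to −0.14, edgeR adjusted p = 0.00421), and it stayed between −0.31 and −0.26 on leaving out each sample. Prkar1b shares its assembled locus on the same strand with Gm15672, which had at most 23 counts in a sample, beside at least 689 counts for Prkar1b.

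The type II subunits Prkar2a and Prkar2b are those that most anchoring proteins bind, and Prkar2b is prominent in adipose tissue and brain. Prkar2a was at 40.4, 45.3, 44.98 and 43.9 CPM with vehicle and at 48.4, 38.0, 42.9 and 43.6 CPM with PTH, and the PTH samples lay on both sides of the vehicle range. Its log2 fold change was −0.01 (95% interval −0.19 to 0.16, edgeR adjusted p = 0.909). Prkar2b was at 46.2, 41.2, 42.6 and 41.7 CPM with vehicle and at 36.5, 40.2, 43.6 and 38.1 CPM with PTH, with overlap through PTH sample 3. Its log2 fold change was −0.12 (SE 0.0736, 95% interval −0.28 to 0.04, edgeR adjusted p = 0.223), so a fall of up to 17.4% lay within the interval.

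The PKA inhibitors are small proteins that bind the free catalytic subunit as a pseudosubstrate. Pkig was at 20.1, 18.02, 15.3 and 20.7 CPM with vehicle and at 24.3, 27.8, 31.3 and 27.1 CPM with PTH. No PTH sample fell within the vehicle range, and PTH sample 1 was the lowest of its group. For Pkig the log2 fold change was 0.57 (SE 0.109, 95% interval 0.34 to 0.81, edgeR adjusted p = 9.98e-04), and it stayed between 0.49 and 0.63 with each sample left out.

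Pkia, the inhibitor first known from muscle and brain, was at 27.3, 27.4, 26.0 and 20.6 CPM with vehicle and at 15.7, 20.6, 22.7 and 18.4 CPM with PTH. Vehicle sample 4 lay apart from the other 3 vehicle samples and within the PTH range. The log2 fold change of Pkia was −0.39 (SE 0.124, 95% interval −0.66 to −0.12, edgeR adjusted p = 0.0218). This call was also near the threshold and was lost without PTH sample 4 (−0.37, edgeR adjusted p = 0.0558), vehicle sample 1 (−0.36, 0.0516), vehicle sample 2 (−0.36, 0.0533) or vehicle sample 3 (−0.38, 0.0521), whereas its direction held in each case. The exact permutation p was 0.0857.

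Pkib had low estimated counts, at 35, 33, 18 and 70 in the vehicle samples and 49, 56, 60 and 61 in the PTH samples. These correspond to 0.781, 0.758, 0.376 and 1.41 CPM with vehicle and to 0.956, 1.68, 1.57 and 1.45 CPM with PTH. Vehicle sample 4 had the highest count of all 8 samples and lay within the PTH range. The log2 fold change of 0.76 (SE 0.384, 95% interval −0.08 to 1.59) had an edgeR adjusted p of 0.130, and without vehicle sample 4 it was 1.14 with an adjusted p of 0.0300. Pkib transcripts also share stretches of at least 150 bases at 95% identity or more with 15 other genes, so its few counts are uncertain. By contrast, no count of the other 8 genes was below 685 in any sample.

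**Figure D2:**
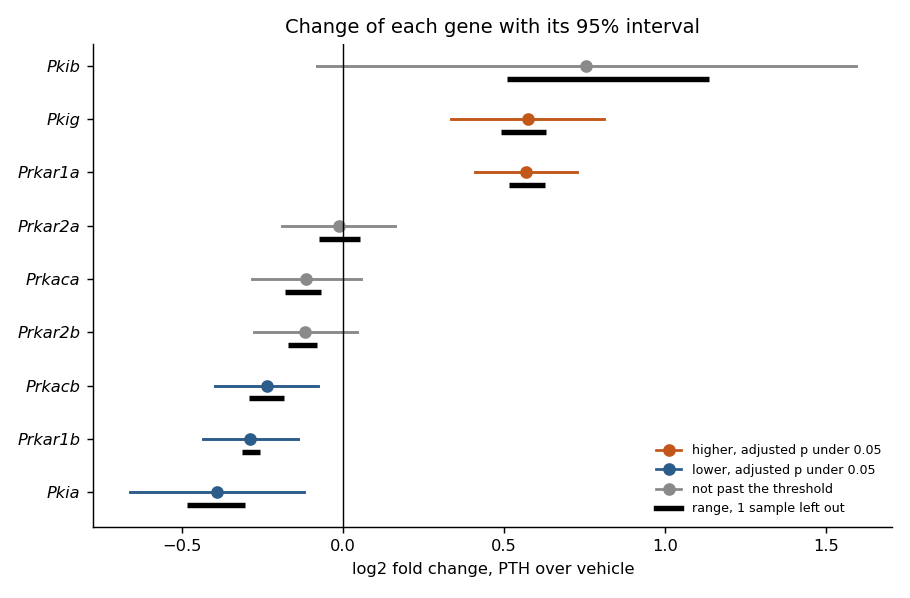
Log2 fold change of PTH over vehicle (horizontal axis) for the 9 genes, with the 95% interval derived from the edgeR test as a thin line. The range over leaving out each sample in turn is a black bar. Prkar1a and Pkig lay above 0, and Prkar1b, Prkacb and Pkia below 0, over the whole of both ranges, whereas the interval of Pkib ran from −0.08 to 1.59.

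PTH sample 1, the deepest library, was the highest PTH sample for Prkaca, Prkacb, Prkar1a, Prkar1b and Prkar2a and the lowest for Prkar2b, Pkia, Pkib and Pkig. Without it all 5 called genes (Prkar1a, Pkig, Prkar1b, Prkacb and Pkia) passed the test in the same direction, and Prkaca passed as well.

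To compare the genes with each other, CPM was divided by the kilobases of exon in the GENCODE M21 annotation of GRCm38. On this per-length scale the level with vehicle was 70.4 ± 0.688 for Prkar1a, 53.9 ± 2.69 for Prkaca, 16.7 ± 0.900 for Prkacb and 11.8 ± 0.612 for Prkar2b (SD, n = 4), in that order and without overlap. Prkar1b (6.95 ± 0.150), Prkar2a (6.84 ± 0.353) and Pkia (6.81 ± 0.863) followed, and each overlapped with its neighbour. Pkig (4.65 ± 0.611) and Pkib (0.0705) came last. The most abundant PKA transcripts per length in these cells were thus those of the ubiquitous type I regulatory and catalytic subunits. With PTH the first 4 genes kept their order, at 104 ± 8.86, 49.8 ± 4.95, 14.2 ± 1.17 and 10.8 ± 0.843 (n = 4). Pkig, at 6.92 ± 0.720, then lay beside Prkar2a (6.78 ± 0.670) with overlap, and above Prkar1b (5.69 ± 0.240) and Pkia (5.20 ± 0.806). Levels per length depend on which transcripts the cells use, which was not measured here. With the longest transcript in place of all exons the order was the same in both groups, but some overlaps differed. In vehicle samples Prkar1b, Prkar2a and Pkia then did not overlap with each other, whereas Pkia and Pkig did. With PTH, Prkar2b and Pkig then overlapped, whereas Prkar1b and Pkia did not.

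The make-up of PKA RNA was then followed per length within each sample. Such shares and ratios do not depend on the scaling between samples, and they are described without a test. Prkar1a made up 73.1%, 73.9%, 73.1% and 73.4% of regulatory subunit RNA in the vehicle samples and 83.0%, 80.7%, 80.7% and 82.3% in the PTH samples. The groups did not overlap, and the mean share was 8.32 percentage points higher with PTH. The share of Prkar2b went from 12.2% to 8.54%, that of Prkar1b from 7.24% to 4.47% and that of Prkar2a from 7.13% to 5.30%, each without overlap. As the 4 shares add up to the whole, a larger share of Prkar1a implies smaller shares elsewhere, and Prkar2a had nearly equal CPM in both groups.

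Regulatory subunit RNA summed per length was 96.0 ± 0.535 with vehicle and 128 ± 9.25 with PTH (n = 4), without overlap, whereas catalytic subunit RNA was 70.6 ± 2.72 and 64.0 ± 6.06, with overlap. The ratio of regulatory to catalytic RNA was 1.34, 1.31, 1.41 and 1.39 in vehicle samples 1 to 4 and 1.93, 1.97, 2.14 and 1.96 in PTH samples 1 to 4. Every PTH sample thus lay above every vehicle sample, and the mean ratio was 0.640 higher. With each sample left out the difference stayed between 0.594 and 0.663. The regulatory sum rose through Prkar1a only, which was 34.0 higher per length with PTH, beside 31.8 for the sum. The means of Prkar1b (−1.26), Prkar2a (−0.0665) and Prkar2b (−0.903) were lower with PTH, and Prkar2a and Prkar2b overlapped between the groups. A ratio of RNA per length is not a ratio of proteins. Within the catalytic RNA, the share of Prkaca was 76.3% ± 1.401 with vehicle and 77.8% ± 0.664 with PTH (n = 4), and the groups overlapped. This share depended on the length used. With the longest transcript as length it was 63.6% with vehicle and 65.5% with PTH, again with overlap.

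For the inhibitors, the summed RNA per length was 11.5 ± 0.798 with vehicle and 12.2 ± 1.54 with PTH (n = 4), and the groups overlapped, but its composition differed. Pkia was the larger share in every vehicle sample, at 59.0%, 61.6%, 64.4% and 51.0%. With PTH its share was 40.6%, 43.8%, 43.3% and 41.7%, and Pkig was the larger share in every PTH sample, between 55.1% and 58.7%. With the longest transcript as length, the Pkia share was 42.7% to 56.5% in vehicle and 32.9% to 35.8% in PTH samples, so the separation of the groups held whereas the lead of Pkia in every vehicle sample did not. The ratio of inhibitor to catalytic RNA was 0.163 ± 0.00684 with vehicle and 0.194 ± 0.0402 with PTH (n = 4), with overlap.

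**Figure D3:**
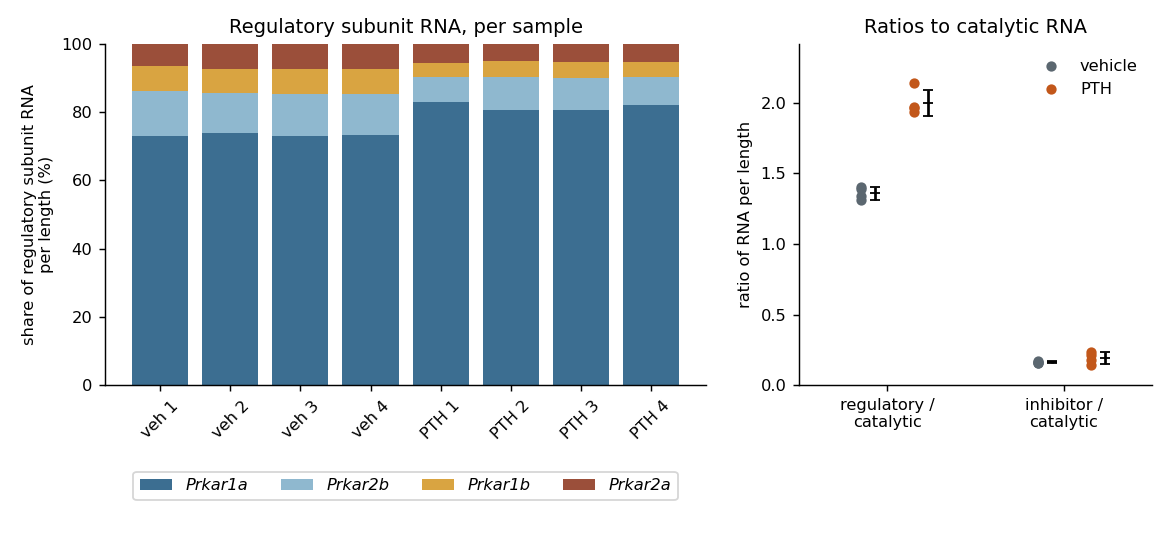
Left, share of each regulatory subunit in regulatory subunit RNA per length (vertical axis, percent) in each of the 8 samples. Right, ratio of regulatory and of inhibitor RNA to catalytic RNA per length, with 1 point per sample and the mean with SD; the regulatory ratio was 1.31 to 1.41 in vehicle and 1.93 to 2.14 in PTH samples, whereas the inhibitor ratios overlapped.

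A-kinase anchoring proteins place PKA near its substrates. Of a list of 32 such genes 31 were in the table and 27 were tested. PTH raised 13 of them and lowered 4, and 10 did not pass, beside 23.3% higher and 22.5% lower over all tested genes, with a median log2 fold change of 0.21 over the list (range −1.32 to 1.82). Akap2 and Pakap share 1 assembled locus, and counting them once left 26 loci with 12 higher, 4 lower and a median of 0.20. Akap9 passed in only 9 of 16 alternative analyses, and 9 genes of the list were called higher without TMM normalization.

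The anchoring genes with the largest increases were Akap5, Cmya5 and Sphkap. Akap5, a membrane scaffold for PKA, protein kinase C and calcineurin, was low throughout, at 0.349 ± 0.141 CPM with vehicle and 1.24 ± 0.115 CPM with PTH (n = 4, log2 fold change 1.82, SE 0.364, edgeR adjusted p = 0.00149). Cmya5 encodes myospryn, known as a type II anchor in muscle, and went from 14.0 ± 0.674 to 43.8 ± 4.70 CPM (n = 4, 1.64, SE 0.0880, edgeR adjusted p = 2.35e-08). Sphkap, which binds type I regulatory subunits, was also low, at 0.287 ± 0.0729 and 0.837 ± 0.187 CPM (n = 4, 1.53, SE 0.369, edgeR adjusted p = 0.00482). Behind these low levels stood 8 to 24 counts of Akap5 with vehicle and 43 to 55 with PTH, and 9 to 16 and 27 to 39 counts of Sphkap. No PTH sample of these 3 genes, picked for their large increases, fell within the vehicle range. Among all tested genes 43.0% showed no overlap.

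The largest decreases were those of Akap17b, Gpr161 and Rab32. Akap17b fell from 8.35 ± 1.31 to 3.37 ± 0.740 CPM (n = 4, log2 fold change −1.32, SE 0.182, edgeR adjusted p = 9.58e-05). Gpr161 encodes an orphan receptor of the primary cilium that itself anchors PKA and is known to hold back hedgehog signalling, and it fell from 15.4 ± 1.19 to 7.11 ± 1.24 CPM (n = 4, −1.12, SE 0.132, edgeR adjusted p = 2.72e-05). Rab32 encodes a small GTPase that anchors PKA at mitochondria, and it fell from 35.4 ± 1.498 to 22.3 ± 2.54 CPM (n = 4, −0.67, SE 0.0863, edgeR adjusted p = 5.60e-05). For each of these 3 genes, picked for their large decreases, the groups did not overlap, beside 43.0% of all tested genes.

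Of 13 other PKA regulators and cAMP effectors, 12 were tested. PTH raised 2 and lowered 1, and 9 did not pass, beside 23.3% higher and 22.5% lower over all tested genes, with a median log2 fold change of −0.12. The cAMP-activated exchange factors for the GTPase Rap moved in opposite directions. Rapgef3 (EPAC1) rose from 8.72 ± 1.07 to 15.3 ± 1.82 CPM (n = 4, log2 fold change 0.81, SE 0.120, edgeR adjusted p = 1.75e-04). Rapgef4 (EPAC2) was at 4.08, 5.05, 5.61 and 8.55 CPM in vehicle samples 1 to 4 and at 3.08, 2.95, 3.03 and 2.88 CPM in PTH samples 1 to 4. The vehicle samples of Rapgef4 were spread out and sample 4 was the highest, but none reached down to the PTH samples (−0.97, SE 0.211, edgeR adjusted p = 0.00265). Prkx, a kinase related to the catalytic subunits that also binds type I regulatory subunits and PKA inhibitors, rose from 14.8 ± 1.62 to 20.4 ± 1.81 CPM (n = 4, 0.47, SE 0.1003, edgeR adjusted p = 0.00238).

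**Figure D4:**
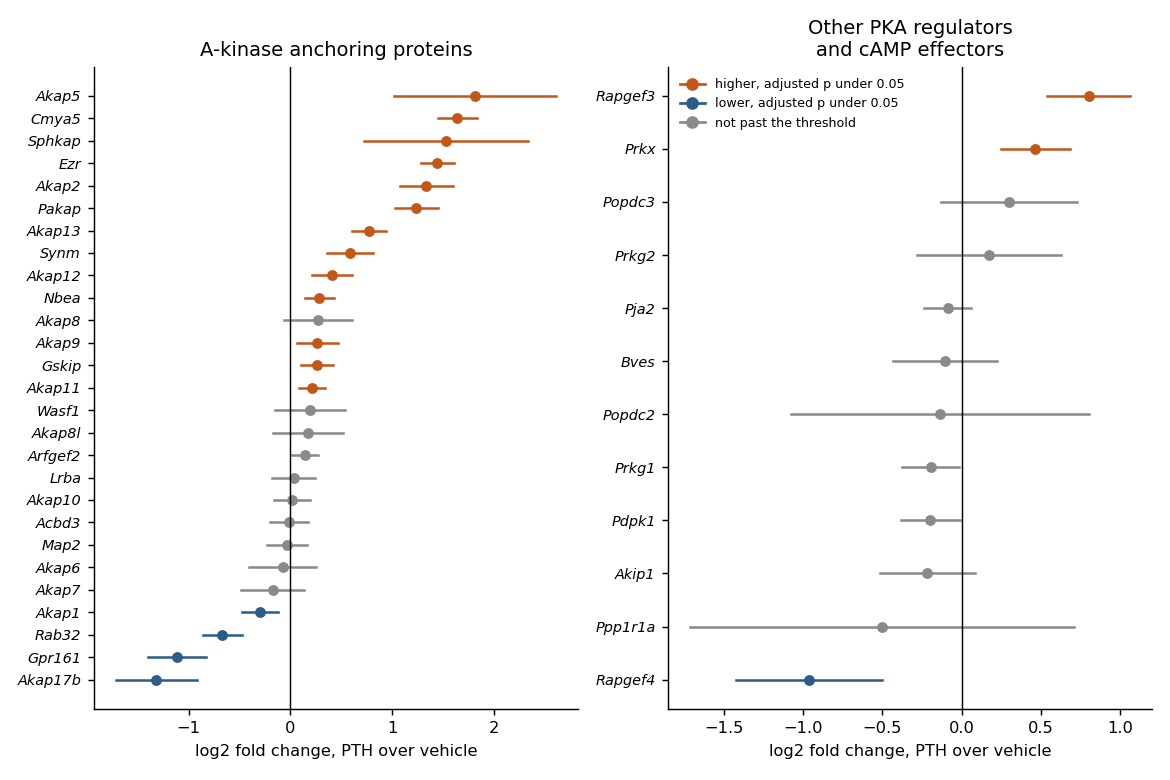
Log2 fold change of PTH over vehicle with its 95% interval (horizontal axes) for the 27 tested anchoring genes (left) and the 12 other tested regulators and cAMP effectors (right), coloured by direction and edgeR call. Anchoring genes ranged from −1.32 for Akap17b to 1.82 for Akap5, and Rapgef3 and Rapgef4 lay on opposite sides of 0.

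Finally, the genes whose levels ran most nearly parallel to Prkar1a and Pkig were found among 14057 genes whose mean level was 1 CPM or more. The measure was the root mean square difference of log2 CPM, each gene centred on its own mean, over the 8 samples. Closest to Prkar1a was Fst, which encodes the activin antagonist follistatin (0.0391, log2 fold change 0.53). Next came Adrbk1, the gene of a kinase that acts on receptors (0.0407, log2 fold change 0.57), and the casein kinase gene Csnk1d (0.0440, log2 fold change 0.62). Closest to Pkig were the ferritin light chain gene Ftl1 (0.0869, log2 fold change 0.52), Cyba (0.0894, log2 fold change 0.52), a subunit of NADPH oxidase, and the kinase gene Dapk2 (0.0897, log2 fold change 0.56). These genes were picked for likeness over samples that differ in treatment, so their fold changes add no separate evidence.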

How the data were processed

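The authors made poly(A)-enriched libraries, used HISAT2 to align paired reads to GRCm38 and StringTie2 to assemble transcripts, and deposited whole-number counts per gene, estimated by StringTie2's companion script from transcript coverage and not normalized. The read length and strand setting given to that script are not given in the sources used here. The submitters' processing notes name HISAT2, StringTie, DESeq2 and mm10. Samples were grouped by their titles.

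PTH (n = 4) was compared with vehicle (n = 4) across all genes with edgeR 4.0.16 in R 4.3.3 (TMM, filterByExpr with minimum counts of 10 and 15 in total, two-sided quasi-likelihood F-test, Benjamini-Hochberg adjusted p under 0.05). The SE of a log2 fold change was its absolute value divided by the square root of the F statistic. The 95% intervals used the t distribution with the degrees of freedom of that test. The study used DESeq2, and DESeq2 1.42.0 was an alternative. The members were compared one by one in an exact permutation test of log2(CPM + 0.1). Per-length levels used exons of GENCODE M21. Similar sequences were found with blastn 2.17.0. The fitting steps were tested on simulated data. Total counts of 33605610 to 56090654 per sample limit the precision of genes with few counts, and all intervals rest on the spread between samples.

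The gene family and the lists were chosen with earlier results of these data known, though membership rests on the symbol and not on a measured value. The text names all 9 members, Tnfsf11, the 3 largest called increases and decreases of each list, and the 3 genes most like each of the 2 members with the largest called change, and any other gene named was chosen after its values were seen. Alternatives were DESeq2, its size factors, no filter, the sample number as a block, each sample left out, counts halved or summed by symbol, a length offset, a minimum log2 fold change of 1, the longest transcript as length and, added after the data were seen, library totals without TMM. Sequencing reads were not analysed here.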

Additional observations from a re-analysis of the deposited data

Results flagged for a closer look

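Among 38 groups of 4 samples examined, 2 held a sample far from the other 3 by Dixon's test. Chance gives about 1 in 20. The groups were those of the members, Tnfsf11 and the genes named from each list. Akap5 was at 1.07 CPM in PTH sample 1 and between 1.29 and 1.31 CPM in the other PTH samples. Tnfsf11 was at 157 CPM in PTH sample 1 and between 115 and 120.2 CPM in the other PTH samples. Both were samples of the same, deepest library, and the groups did not overlap for either gene.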

How the results depend on the processing

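Prkar1a (log2 fold change 0.44 to 0.64), Pkig (0.45 to 0.64) and Prkar1b (−0.42 to −0.22) kept direction and call in all 16 alternatives with a call at any size of change. Prkacb passed in 10 and Pkia in 11. With an offset for a trend with transcript length, Prkacb (−0.17, edgeR adjusted p = 0.0786) and Pkia (−0.32, 0.0547) did not pass, which left 1 member lower and 2 other regulators lower. Leaving out each sample gave 1 to 4 members lower and 1 to 2 other regulators lower. Without the filter 2 other regulators were lower. Library totals without TMM moved the median of all genes to −0.13 and the calls from 3907 higher and 3762 lower to 2889 and 5356. On that scale 5 members were lower, Prkaca (−0.24, edgeR adjusted p = 0.00956) and Prkar2b (−0.24, 0.0279) included, and 4 other regulators. A minimum log2 fold change of 1 left 0 members higher and 0 lower, 6 anchoring genes higher and 2 lower, and 0 other regulators in either direction. With the longest transcript as length the Prkar1b share differed by −3.25 percentage points. Deviations from the group mean were nearly uncorrelated between samples of equal number (−0.041 to 0.027). That cannot tell whether such samples share a preparation, as other differences between libraries also enter the deviations. With the replicate block 2 members were higher and 2 lower, of 7003 genes called. The causes were not tested. Among the members, Pkib had the fewest counts, at 18 to 70.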
